A study of Mus musculus with 4 samples.

Results

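Mitochondrial ribosomal protein genes are the nuclear genes whose products, with ribosomal RNAs made in the organelle, build the ribosome inside mitochondria. They were taken here as every gene whose symbol in the deposited series table starts with Mrpl (large subunit) or Mrps (small subunit) followed by a digit, which gave 77 of the 27278 genes with a symbol, 48 Mrpl and 29 Mrps. They were read in cultured aortic vascular smooth muscle cells grown out of explants of adult C57BL/6J mice. All 4 cultures carried the genotype EP4-Tg, where EP4 is a Gs-coupled receptor for prostaglandin E2 (PGE2). The 2 control cultures were left untreated and the 2 PGE2 cultures received PGE2, each for 24 h, and each culture was read on 1 Agilent one-colour array. Neither the PGE2 dose nor the promoter of the transgene is given in the sources used here. Since every culture carried EP4-Tg, the comparison covers the response to PGE2 in these cells and not the transgene itself. The labels call the cultures biological replicates without naming the animals behind them, so p-values measure the spread between these cultures.

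The mitochondrial ribosome translates the few messenger RNAs of mitochondrial DNA, all of which encode membrane subunits of the respiratory chain and of ATP synthase. Its small subunit decodes the messenger, its large subunit joins the amino acids, and its proteins are made on cytosolic ribosomes and imported. Some of them descend from bacterial ribosomal proteins and others are found only in mitochondria. Smooth muscle cells, like other cells, need this ribosome to renew their oxidative phosphorylation complexes, and the transcription factors NRF1 and GABP (an ETS factor) are textbook regulators of nuclear genes for mitochondrial proteins.

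Between 47.9% and 53.8% of the 59305 non-control spots of an array were well above background, and no spot was saturated. Correlations of the tested genes were 0.974 between the control arrays, 0.978 between the PGE2 arrays, and 0.943 to 0.958 between arrays of different groups. Levels below are log2 processed intensity minus the array's 75th percentile, and a difference is the PGE2 mean minus the control mean on that scale, with its standard error (SE) from limma over 17660 tested genes, n = 2 per group. Of these genes 70 (0.396%) were called higher and 48 (0.272%) lower, 0.668% in either direction, at a Benjamini-Hochberg adjusted p under 0.05. Of 8 smooth muscle markers 4 were above background, with Des, Lmod1, Myh11 and Myocd below it. The summed intensity of the 8 was 436897 and 287403 on the control arrays and 98584 and 134525 on the PGE2 arrays. Of 5 fibroblast markers 4 were above background, Dpt not, and their sum went from 102573 and 54453 to 13795 and 16142. Dcn (-2.91), Lum (-2.17) and Col14a1 (-0.68) lay below both controls on both PGE2 arrays. Pdgfra went the other way (0.60), with overlapping groups. Of 6 leukocyte and macrophage markers 5 were above it, Adgre1 not, with sums of 40721 and 39442 against 38995 and 27382. Itgam (-0.61) carries most of that sum, and among the 5 tested the PGE2 arrays lay above both controls in Cd68 (2.09, adjusted p 0.109 in limma), Csf1r (0.98) and Cd14 (0.62) and below them in Itgam and Ptprc (-0.36), with a median of 0.62. One of 6 endothelial markers, Pecam1, and none of 5 adipocyte markers passed, and Cdh5, Kdr, Tek, Tie1 and Vwf did not. The part of these marker changes in the results below was not tested, and in bulk RNA fewer cells of a type and less RNA per cell cannot be told apart.

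The promoters of the members the results turn on are shown first, since genes of this family are known for shared regulators. Each line is the 250 bases before the RefSeq transcription start on assembly GRCm38.p6, read 5′ to 3′ on the gene's strand, and capitals mark a match to 1 of 5 searched motifs. Mrps6 and its overlapping neighbour Slc5a3, Mrps10 and Mrpl53 are the members or neighbour at the extremes of the comparison. Mrpl17 holds 3 kinds of motif, and Mrpl12 carries the NRF1 motif. Mrps6 lies at chr16:92058086-92058335 (plus strand), Slc5a3 at chr16:92058072-92058321 (plus), Mrps10 at chr17:47368947-47369196 (plus), Mrpl53 at chr6:83108858-83109107 (plus), Mrpl17 at chr7:105811088-105811337 (minus) and Mrpl12 at chr11:120484387-120484636 (plus).
Mrps6: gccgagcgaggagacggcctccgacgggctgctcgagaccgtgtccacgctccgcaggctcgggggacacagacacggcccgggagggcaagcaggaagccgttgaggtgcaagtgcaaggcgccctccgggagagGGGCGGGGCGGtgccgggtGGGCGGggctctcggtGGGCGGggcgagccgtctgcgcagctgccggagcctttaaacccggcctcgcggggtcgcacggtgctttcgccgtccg
Slc5a3: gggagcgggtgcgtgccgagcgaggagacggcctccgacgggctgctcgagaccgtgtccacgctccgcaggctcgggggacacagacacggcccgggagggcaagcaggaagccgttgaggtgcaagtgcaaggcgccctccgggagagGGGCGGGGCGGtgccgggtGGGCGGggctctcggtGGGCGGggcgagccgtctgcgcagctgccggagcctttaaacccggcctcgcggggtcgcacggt
Mrps10: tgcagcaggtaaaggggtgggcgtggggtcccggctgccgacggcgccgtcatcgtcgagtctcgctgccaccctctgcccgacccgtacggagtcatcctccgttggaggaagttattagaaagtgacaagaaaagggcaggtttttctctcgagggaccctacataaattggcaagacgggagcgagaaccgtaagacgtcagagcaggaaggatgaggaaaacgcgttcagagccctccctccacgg
Mrpl53: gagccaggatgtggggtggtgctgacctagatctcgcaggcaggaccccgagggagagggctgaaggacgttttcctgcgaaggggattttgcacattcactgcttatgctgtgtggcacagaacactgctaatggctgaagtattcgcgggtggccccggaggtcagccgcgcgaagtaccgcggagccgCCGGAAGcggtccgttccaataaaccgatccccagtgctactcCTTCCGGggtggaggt
Mrpl17: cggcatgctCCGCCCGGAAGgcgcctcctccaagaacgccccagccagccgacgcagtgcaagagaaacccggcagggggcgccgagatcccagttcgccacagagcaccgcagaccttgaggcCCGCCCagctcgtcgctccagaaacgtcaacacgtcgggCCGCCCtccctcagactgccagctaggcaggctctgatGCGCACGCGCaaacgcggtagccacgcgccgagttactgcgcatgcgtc
Mrpl12: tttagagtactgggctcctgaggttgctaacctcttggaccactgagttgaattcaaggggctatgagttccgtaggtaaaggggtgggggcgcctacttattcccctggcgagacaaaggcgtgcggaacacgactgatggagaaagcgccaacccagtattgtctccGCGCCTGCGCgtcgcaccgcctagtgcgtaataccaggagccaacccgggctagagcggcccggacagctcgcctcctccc

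The capitals in Mrps6 and Slc5a3 are 4 GC boxes, in Mrpl53 2 ETS motifs, in Mrpl12 1 NRF1 motif, and in Mrpl17 an NRF1 motif, an ETS motif and 3 GC boxes, of which the first overlaps the ETS motif. Mrps10 held none of the 5. The motifs were GCGCA and GCGC with any 1 base between them (NRF1), CCGGAAG (ETS), AAGATGGC (YY1), TGACGTCA (the cyclic AMP response element) and GGGCGG (GC box), searched on both strands of the 300 bases from 250 before to 50 after the start. RefSeq gave this window for 68 of the 77 members and for 27025 genes in all. NRF1 was matched in 13 of the 68 (19.1%) against 9.38% of cytosolic ribosomal protein genes and 5.19% of all genes. ETS was matched in 25 (36.8%) against 39.1% and 9.93%, and YY1 in 12 (17.6%) against 9.38% and 3.19%. The cyclic AMP response element stood in 2 (2.94%) against 7.81% and 2.03%, and the GC box in 34 (50%) against 60.9% and 38.2%. NRF1 was matched in 10 of 42 large and 3 of 26 small subunit genes, and the GC box in 17 of 42 and 17 of 26. In all, 55 of 68 held at least 1 of the 5. A match describes letters in this window only.

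No mitochondrial ribosomal protein gene was called in either direction after PGE2. All 77 passed the filter on dim probes, through a tested probe well above background on all 4 arrays, and the smallest adjusted p (limma, Benjamini-Hochberg) was 0.108. At an unadjusted p under 0.05 there were 2, Mrps10 higher and Mrps6 lower, where 7.31% of all tested genes passed that threshold as higher and 10.5% as lower (17.8% in either direction). The fitted difference was above 0 in 61 and below 0 in 16, with a median of 0.14 (quartiles 0.01 and 0.27), beside -0.03 (quartiles -0.33 and 0.23) and 47.3% above 0 over all tested genes. Both PGE2 arrays lay above both control arrays in 30 of 77 (39.0%), beside 24.0% of all tested genes. They lay below both in 2 of 77 (2.60%), Mrps6 and Mrpl45, beside 28.3%. Among 6513 other tested genes of similar brightness, between the 10th and 90th percentile of the members, the median was 0.03, with 28.1% above and 23.4% below.

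The differences were small and narrow in range. In 74 of 77 members the fitted difference was under 0.5 in size, and in 72 the 95% interval lay within 1 of 0, so a change of 2-fold is outside those intervals. Over the members the interval reached 0.41 to 0.86 to either side of the value. The median level of the members was 2.81 and 2.66 on the control arrays and 3.01 and 2.87 on the PGE2 arrays. The groups did not overlap in this median, and their means, 2.74 and 2.94, differed by more than the pooled SD of 0.10 between arrays of a group. Taken within each gene, as the level minus the gene's control mean, the medians over members were 0.12 and -0.12 on the control arrays and 0.18 and 0.08 on the PGE2 arrays. By that measure the groups overlapped, with Control 1 above PGE2 2. The arrays within a group also shifted the members together, with 71 of 77 lower on Control 2 than on Control 1 and 62 lower on PGE2 2 than on PGE2 1. The upward shift depended on Control 2: without it the median was 0.01 and 40 of 77 members were above 0, and without Control 1 it was 0.23.

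**Figure D1:**
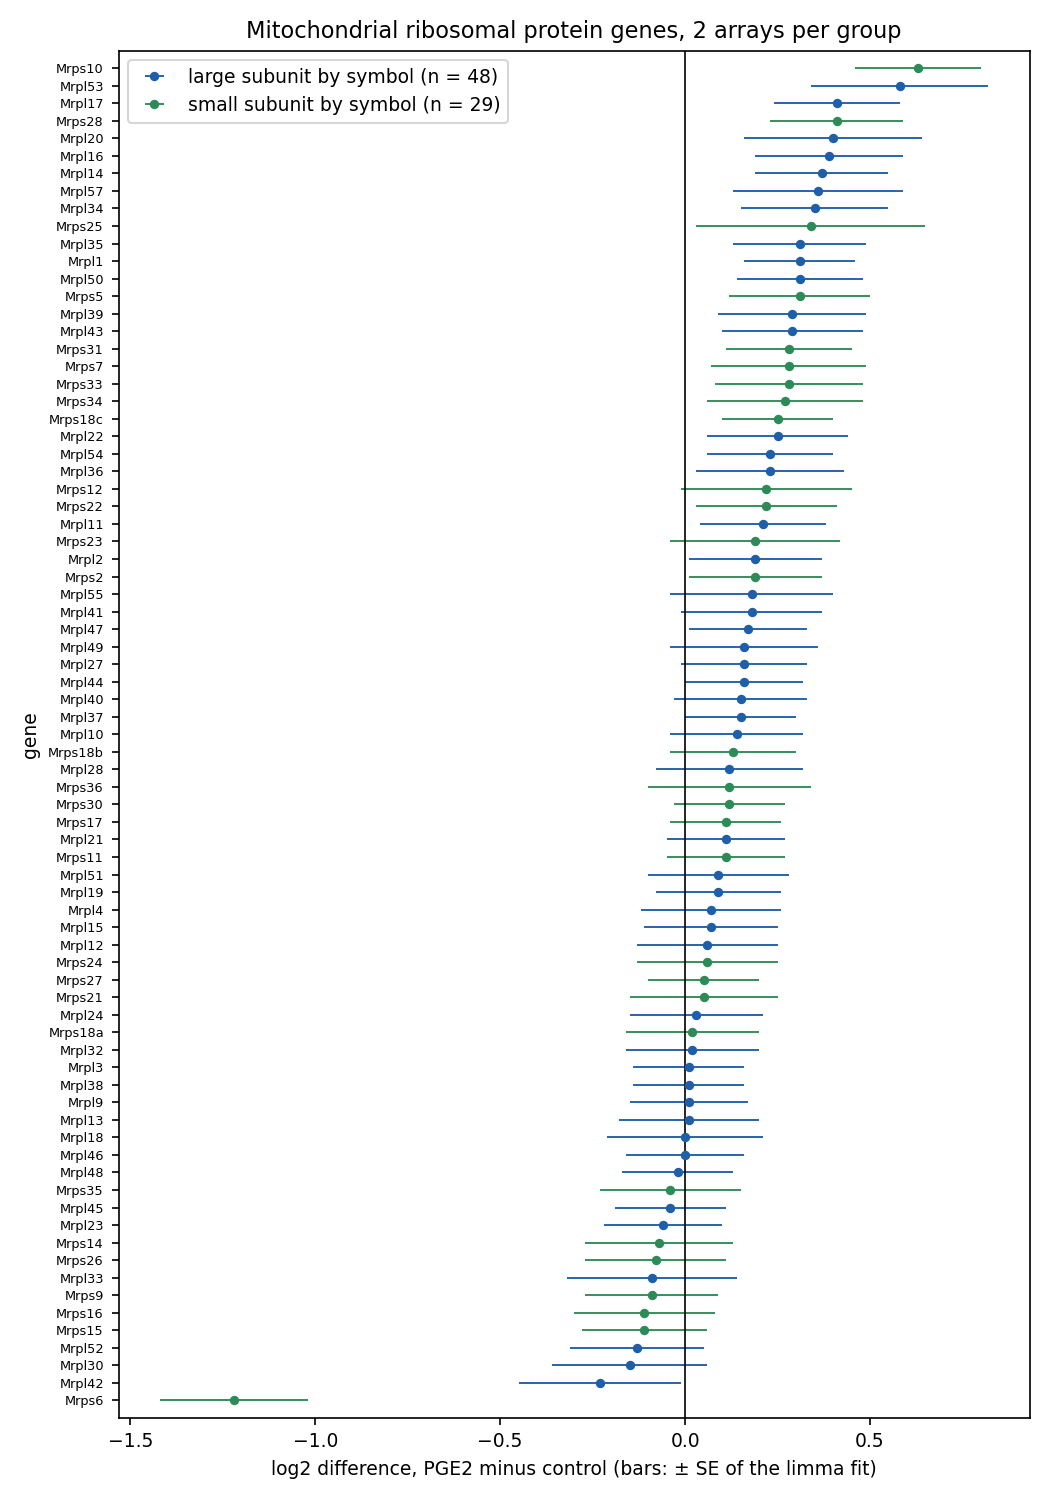
Each of the 77 genes is a point at its fitted log2 difference (PGE2 minus control, x axis) with a bar of ± 1 SE from limma, ordered on the y axis by that difference and coloured by subunit. The points run from -0.23 to 0.41 with both subunits mixed, Mrpl53 at 0.58 and Mrps10 at 0.63 lie above them, and Mrps6 stands alone at -1.22.

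The large subunit, with 48 genes, had a median difference of 0.15 (quartiles 0.01 and 0.26), with 39 above 0. Its median level was 3.0 and 2.80 on the control arrays and 3.09 and 3.06 on the PGE2 arrays, without overlap, though within genes Control 1 (0.12) lay above PGE2 2 (0.08). Both PGE2 arrays were above both controls in 19 genes (39.6%) and below in 1, beside 24.0% and 28.3% of all tested genes. The 30 homologues of bacterial proteins had a median of 0.13, and the 18 mitochondria-specific proteins 0.15. The small subunit, with 29 genes, had a median of 0.12 (quartiles 0.02 and 0.27), with 22 above 0, 11 (37.9%) above on both PGE2 arrays and 1 below, beside the same shares. Its median level was 2.66 and 2.40 on the control arrays and 2.75 and 2.74 on the PGE2 arrays, and within genes Control 1 (0.14) again lay above PGE2 2 (0.13). By symbol, its 16 genes counted as bacterial homologues had a median of 0.11 and the 12 counted as mitochondria-specific 0.16. Mrps18c was counted in the first class, and Mrps18a, Mrps18b and Mrps30 in the second.

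The large and small subunit medians differed by 0.03, which is no more than the pooled SD of 0.03 between arrays of a group for that difference. Symbols do not place every protein: Mrps18a and Mrps30 sit in the large subunit and Mrps36 belongs to a different mitochondrial enzyme complex. With the first pair counted as large and Mrps36 left out, the difference was -0.01. No direction between the subunits was therefore measured.

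**Figure D2:**
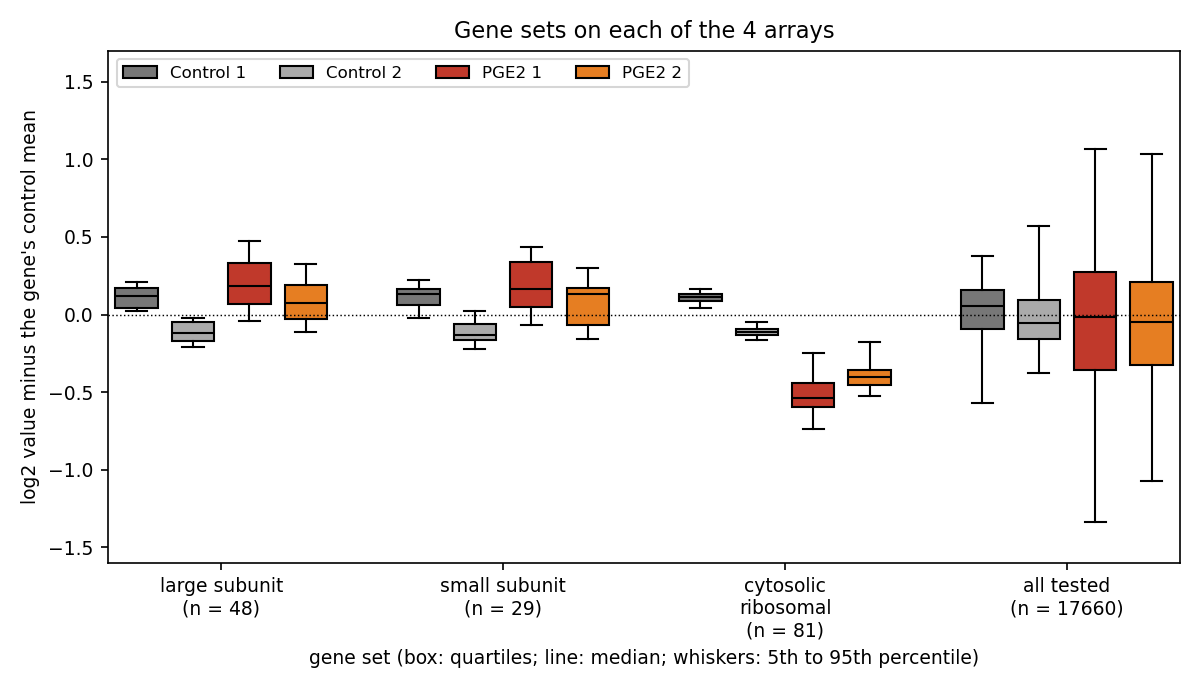
Boxes show, for each of the 4 arrays, the log2 level of each gene minus that gene's control mean (y axis) in 4 gene sets (x axis), with the median as a line, quartiles as the box and the 5th to 95th percentile as whiskers. The mitochondrial medians lie at 0.08 to 0.18 on the PGE2 arrays, within or just above the range of the control arrays, while the cytosolic medians lie at -0.53 and -0.41, clear of both control arrays.

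Among the large subunit genes, Mrpl53, a mitochondria-specific protein, was at 3.29 and 2.87 on the control arrays and 3.82 and 3.5 on the PGE2 arrays. The groups did not overlap, and the difference of 0.58 ± 0.24 (SE, n = 2 per group) had a 95% interval from -0.07 to 1.23 and an adjusted p of 0.315 in limma. Mrpl17, the counterpart of bacterial L17, went from 2.54 and 2.37 to 2.94 and 2.78 (difference 0.41 ± 0.17, adjusted p 0.322 in limma). Mrpl20, needed in bacteria for early assembly of the large subunit, was at 4.36 and 3.85 against 4.58 and 4.44. Its difference was 0.40 ± 0.24 (adjusted p 0.447 in limma), and the spread between the control arrays, 3.85 to 4.36, was wider than that. Mrpl16, next to the peptidyl transferase centre in the bacterial ribosome, was at 2.35 and 1.97 against 2.60 and 2.48 (0.39 ± 0.20). Mrpl14, a protein at the interface of the subunits, was at 4.49 and 4.34 against 4.90 and 4.67 (0.37 ± 0.18). Mrpl57, a small mitochondria-specific protein, was at 4.62 and 4.14 against 4.81 and 4.65 (0.36 ± 0.23). These 6 genes were named for their high fitted differences, a choice that favours separated groups. In each of them both PGE2 arrays were above both control arrays, beside 24.0% of all tested genes, and none was called. Without Control 2 the difference was 0.37 in Mrpl53, 0.20 in Mrpl16, 0.15 in Mrpl20 and 0.12 in Mrpl57, and without Control 1 it was 0.66 in Mrpl20 and 0.60 in Mrpl57.

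At the lower end of the large subunit, the groups overlapped in Mrpl42, Mrpl30, Mrpl52 and Mrpl33. Mrpl42, a mitochondria-specific protein, was at 3.71 and 3.30 on the control arrays and 3.36 and 3.18 on the PGE2 arrays, a difference of -0.23 ± 0.22 (adjusted p 0.625 in limma). Mrpl30, a bacterial homologue, was at 3.74 and 3.43 against 3.58 and 3.29 (-0.15 ± 0.21). Mrpl52, another mitochondria-specific protein, was at 5.09 and 4.81 against 4.81 and 4.84 (-0.13 ± 0.18). For Mrpl33, the counterpart of a small bacterial protein near the tRNA exit site, the levels were 5.84 and 5.37 against 5.61 and 5.42 (-0.09 ± 0.23). These 4 differences are about the size of their standard errors or smaller. Mrpl45, an inner-membrane anchor of the ribosome at its polypeptide exit and the other gene below on both PGE2 arrays, had 2.29 and 2.24 against 2.24 and 2.22. Its difference was -0.04, and it is named here because of its values.

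Large subunit proteins of known roles, named whatever their result, were also read. Mrpl12, part of the stalk that recruits translation factors and a partner of the mitochondrial RNA polymerase, was at 3.51 and 3.17 on the control arrays and 3.41 and 3.38 on the PGE2 arrays. Its difference of 0.06 ± 0.19 had a 95% interval from -0.46 to 0.57. Mrpl10, which anchors that stalk, was at 1.64 and 1.40 against 1.75 and 1.57 (0.14 ± 0.18). Mrpl3, a core protein near the peptidyl transferase centre, was at 2.66 and 2.58 against 2.60 and 2.67, a difference of 0.01 with an interval from -0.40 to 0.43. In Mrpl12, Mrpl10 and Mrpl3 the difference was smaller than its standard error. Mrpl44, which has a ribonuclease III fold, was at 0.90 and 0.81 against 1.09 and 0.95 (0.16 ± 0.16). Mrpl18, known for binding 5S ribosomal RNA, was at 2.27 and 1.88 against 2.13 and 2.01 (0.00 ± 0.21). Mrpl41, a mitochondria-specific protein, was at 3.61 and 3.25 against 3.64 and 3.57 (0.18 ± 0.19). Of these 6 genes, only in Mrpl44 did the groups not overlap.

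In the small subunit the range was set by 2 genes. Mrps10 (17qC), a protein of the head of the subunit, was at 2.13 and 1.92 on the control arrays and 2.70 and 2.61 on the PGE2 arrays. Both PGE2 arrays stood above both controls, and the difference of 0.63 ± 0.17 (95% interval 0.17 to 1.09) had an unadjusted p of 0.0188 and an adjusted p of 0.196 in limma. Mrps28, the counterpart of bacterial S1, was at 1.97 and 2.27 against 2.50 and 2.58 (0.41 ± 0.18, adjusted p 0.341 in limma), again without overlap, and without Control 1 its difference was 0.26. Mrps10 and Mrps28 were the small subunit genes among the 8 highest members.

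Mrps6 (16qC4), a platform protein of the small subunit, lay lowest of all members. Its levels were 5.33 and 5.64 on the control arrays and 4.13 and 4.40 on the PGE2 arrays, with no overlap between the groups. The difference was -1.22 ± 0.20 (95% interval -1.78 to -0.66), with an unadjusted p of 0.00357 and an adjusted p of 0.108 in limma. The fitted value stayed negative in every setting tried, from -0.96 to -1.37, and the gene was called in none of them (adjusted p 0.0658 to 0.434 in limma). Only 1 probe reads it, and the same holds for each of the 8 highest members, Mrps10 and Mrpl53 among them. In bacteria S6 pairs with S18. Mrps18c, one of the mitochondrial counterparts of S18, was at 2.81 and 2.81 against 3.01 and 3.11. Its difference was 0.25 ± 0.15 (a gene chosen after its values were seen). Mrps18a and Mrps18b had smaller differences, 0.02 and 0.13, with overlapping groups.

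Mrps6 shares its start region with Slc5a3, which encodes a sodium-coupled myo-inositol transporter. In RefSeq both lie on the same strand, the gene bodies overlap, and the 300-base promoter windows are offset by 14 bases and share 286. Slc5a3 was at 1.56 and 2.76 on the control arrays and -0.17 and 0.17 on the PGE2 arrays, without overlap. Its difference was -2.16 ± 0.46 (adjusted p 0.148 in limma), and its second probe, at 0.80 and 2.15 against -0.37 and -0.09, gave -1.71. Whether the Mrps6 probe also reads Slc5a3 transcripts was not tested.

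**Figure D3:**
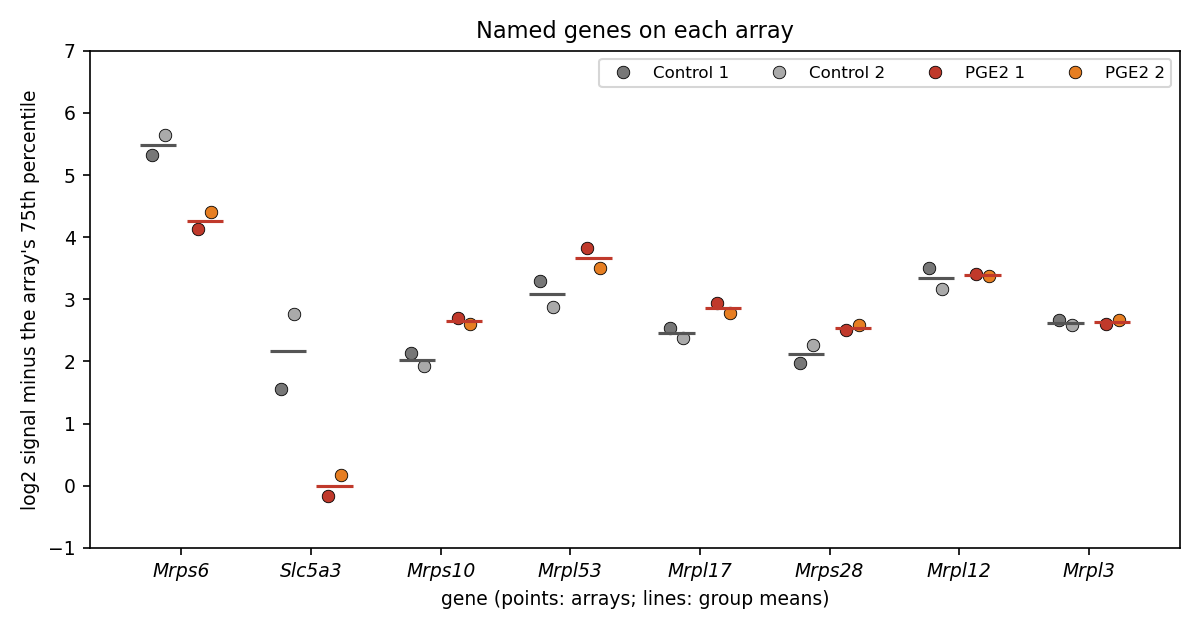
Levels on each of the 4 arrays (points, y axis, log2 intensity minus the array's 75th percentile) with group means as lines for Mrps6, its neighbour Slc5a3, 4 of the highest members and Mrpl12 and Mrpl3. The control and PGE2 points are apart in the first 6 genes, downward in Mrps6 and Slc5a3, and overlap in Mrpl12 and Mrpl3.

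The 10 other small subunit genes named, chosen by role or rank, had differences from -0.11 to 0.28. Mrps15, at the interface with the large subunit, was at 3.60 and 3.37 on the control arrays and 3.35 and 3.40 on the PGE2 arrays (-0.11 ± 0.17). Mrps16, whose loss causes a human defect of mitochondrial translation, was at 4.89 and 4.59 against 4.67 and 4.58 (-0.11 ± 0.19). Mrps9, a protein of the head, was at 1.45 and 1.37 against 1.46 and 1.19 (-0.09 ± 0.18). The control and PGE2 arrays overlapped in all 3. Mrps12, a protein of the decoding centre, was at 3.99 and 3.51 against 4.04 and 3.91 (0.22 ± 0.23). Mrps7, which starts assembly of the head in bacteria, was at 3.16 and 2.74 against 3.29 and 3.19 (0.28 ± 0.21). Mrps2, a bacterial homologue, was at 2.07 and 1.79 against 2.14 and 2.09 (0.19 ± 0.18). In Mrps7 and Mrps2 both PGE2 arrays were above both controls, narrowly. Mrps22, another gene of human mitochondrial disease, was at 1.08 and 0.75 against 1.11 and 1.15 (0.22 ± 0.19), also without overlap. Mrps34, a mitochondria-specific protein, was at 3.96 and 3.59 against 4.15 and 3.94 (0.27 ± 0.21). Mrps27, a pentatricopeptide repeat protein, was at -0.49 and -0.57 against -0.52 and -0.45 (0.05 ± 0.15). Mrps30, which sits in the large subunit, was at 1.63 and 1.67 against 1.76 and 1.79, a difference of 0.12 ± 0.15 with no overlap. None of these 10 genes had an adjusted p under 0.5 in limma.

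Probes of a gene mostly gave the same sign. Of the 119 probes for the members, 1 was left out for an outlier flag and 107 passed the filter, 106 of them above background on all 4 arrays. In 25 genes more than 1 probe passed, and the sign differed in 4: Mrpl48 (-0.02 and 0.01), Mrpl9 (-0.03 and 0.01), Mrps9 (-0.09 and 0.05) and Mrps31 (-0.10 and 0.28). The widest spread between probes was 0.38, in Mrps31 and in Mrpl38 (0.01 to 0.39), which is larger than most members' differences.

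The cytosolic ribosomal protein genes, set beside them as a reference, lay the other way. Of 85 Rpl and Rps genes 81 were tested, and the median difference was -0.46, with 79 below 0 and 78 (96.3%) below both controls on both PGE2 arrays, beside 28.3% of all tested genes. None was called (smallest adjusted p 0.176 in limma). At an unadjusted p under 0.05 in limma there were 32 of 81, all lower, beside 10.5% of all tested genes. Among 352 other genes in the brightness range of the cytosolic genes, 95 were lower at that threshold. The large subunit median was -0.47 and the small subunit median -0.45. Rpl22l1, a paralogue of Rpl22, was at 6.40 and 6.19 on the control arrays and 5.60 and 5.64 on the PGE2 arrays, a difference of -0.68 ± 0.17. The exceptions were Rpl7l1 (-0.13 and -0.53 against 0.02 and 0.03), Rps4l (-1.10 and 1.55 against 0.18 and 1.72) and Rpl36al (5.03 and 4.69 against 4.86 and 4.86). Many cytosolic genes have near-identical pseudogenes that a probe may share.

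The median of the mitochondrial genes stood 0.60 above that of the cytosolic genes, where the pooled SD of that gap between arrays of a group was 0.16. Brightness moved with this gap. The cytosolic genes were among the brightest on the array, with medians of 7.69, 7.46, 6.99 and 7.16, and 352 other genes in their brightness range had a median difference of -0.37, with 71.0% below both controls on both PGE2 arrays. After quantile normalization, which gives all arrays the same distribution of values, the cytosolic median was -0.16 and the gap 0.27. The difference of the cytosolic genes from other equally bright genes was not tested.

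**Figure D4:**
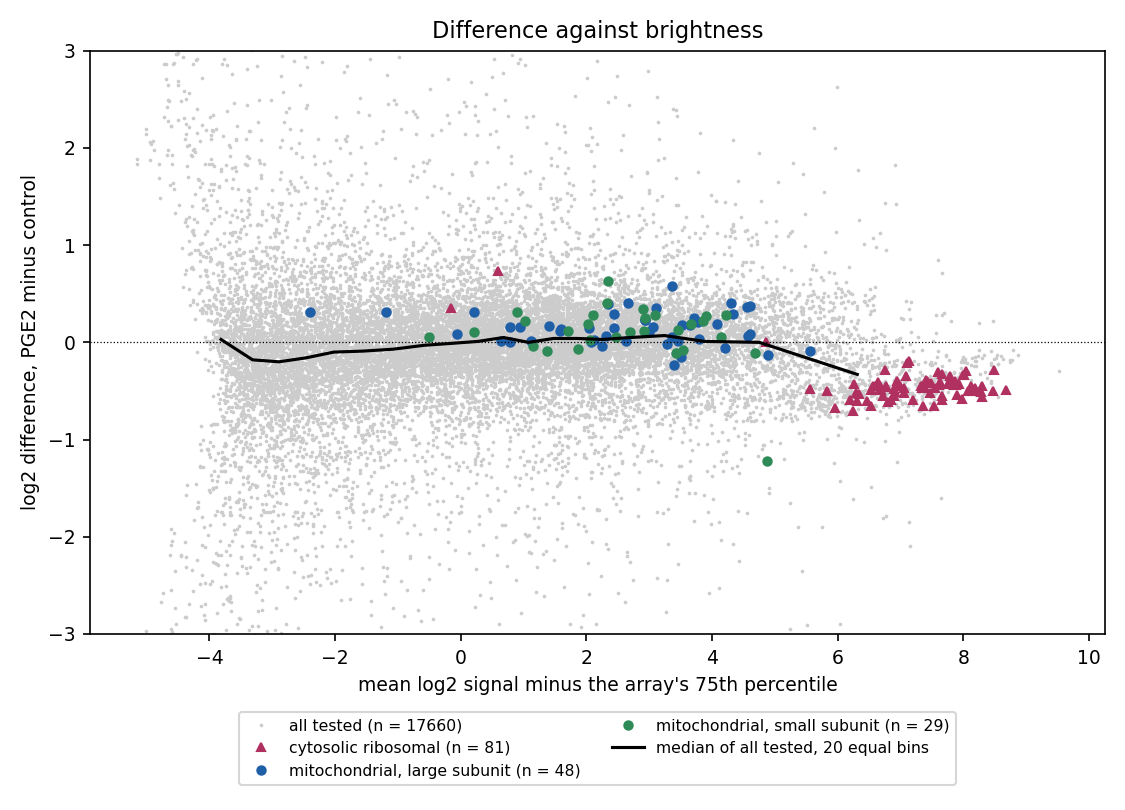
Log2 difference (y axis) against mean level (x axis, log2 intensity minus the array's 75th percentile) for 17660 tested genes in grey, of which 242 lie beyond the axis limit of 3, with the median of all genes over 20 equal bins as a line. The cytosolic genes (triangles) lie at the bright end where the line drops below 0, and the mitochondrial genes (circles) lie in the middle range, mostly just above it.

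Genes that serve the mitochondrial ribosome were read from further lists, and none was called in any. The counts of genes whose groups did not overlap are to be read beside the 24.0% (above) and 28.3% (below) of all tested genes. Of 6 mitoribosomal proteins with other symbols, 5 were above 0 and 3 were above both controls on both PGE2 arrays. Their median was 0.14, with Chchd1 at 0.36 ± 0.17, Dap3 at 0.20, Gadd45gip1 at 0.16 and Mrpl58 (Ict1 in the file) at 0.12. Of 26 assembly factors, 19 were above 0, with 12 above (46.2%) and 3 below both controls on both PGE2 arrays, and a median of 0.13. The furthest was Mettl15, a methyltransferase of the small ribosomal RNA, at -1.02 and -1.14 on the control arrays and -0.37 and -0.56 on the PGE2 arrays (0.62 ± 0.17, adjusted p 0.200 in limma). Dhx30, an RNA helicase of assembly, had a difference of 0.40, Rpusd4, a pseudouridine synthase, 0.36 and Gtpbp10, a GTPase of the large subunit, 0.34. The medians of these 2 lists lay near that of the members.

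Of 17 translation factors, 11 were above 0, with 7 above (41.2%) and 4 below (23.5%) both controls on both PGE2 arrays (median 0.10), beside 24.0% and 28.3% of all tested genes. Taco1, an activator of the translation of cytochrome c oxidase subunit I, was at -2.59 and -3.0 on the control arrays and -1.94 and -1.69 on the PGE2 arrays, a difference of 0.98 ± 0.22 (adjusted p 0.162 in limma). Gfm2, a ribosome recycling factor, had a difference of 0.45, Tsfm, an elongation factor, 0.33 and Mtfmt, which formylates the initiator methionine, 0.28. The 16 tested tRNA synthetases had a median of 0.02, with 4 above (25%) and 2 below (12.5%). Cars2 had a difference of -0.38, and with 10 above 0 and 6 below it this group, whose enzymes charge mitochondrial tRNAs, lay to both sides of 0. The 12 genes of mitochondrial DNA transcription and upkeep had a median of -0.03, with 2 above (16.7%) and 5 below (41.7%). Among them Ssbp1, which binds single-stranded mitochondrial DNA, had a difference of 0.28 and Top1mt, a topoisomerase, -0.31. Of 11 regulators of mitochondrial biogenesis 8 were tested, with a median of 0.10. Ppargc1a, Ppargc1b and Mycn were on the array without a kept probe, so they were not tested. Pprc1, a coactivator of NRF1, was at 0.62 and 0.68 against 1.06 and 1.07, a difference of 0.41 ± 0.15 (adjusted p 0.278 in limma).

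On the main scale used here, the messenger RNAs that the mitochondrial ribosome translates lay lower rather than higher. Of 11 mitochondrially encoded messenger RNAs on the array, 10 had a fitted difference below 0 and 6 (54.5%) were below both controls on both PGE2 arrays, with a median of -0.22. The share below was 28.3% over all tested genes and 71.0% among other genes as bright as the cytosolic ones. That last set is brighter than these messenger RNAs, with medians of 7.19 and 6.96 on the control arrays, so it does not match them in brightness. The differences were -0.30 for ND4L, -0.29 for ND4, -0.26 for ND3 and -0.23 for CYTB, and ND6, the one encoded on the other strand, was at 0.37. Their median levels were 5.99 and 5.93 on the control arrays and 5.63 and 5.77 on the PGE2 arrays, so the groups did not overlap. None was called (smallest adjusted p 0.459 in limma). Except for ND6, at -0.81 and -0.48 against -0.48 and -0.08, these are bright probes, with levels from 3.59 to 8.45. Whether their direction holds under other scalings was not tested. The median difference of all tested genes was -0.03 on the main scale and 0.23 on the authors' scale. That of the bright cytosolic genes went from -0.46 on the main scale to -0.16 after quantile normalization.

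**Figure D5:**
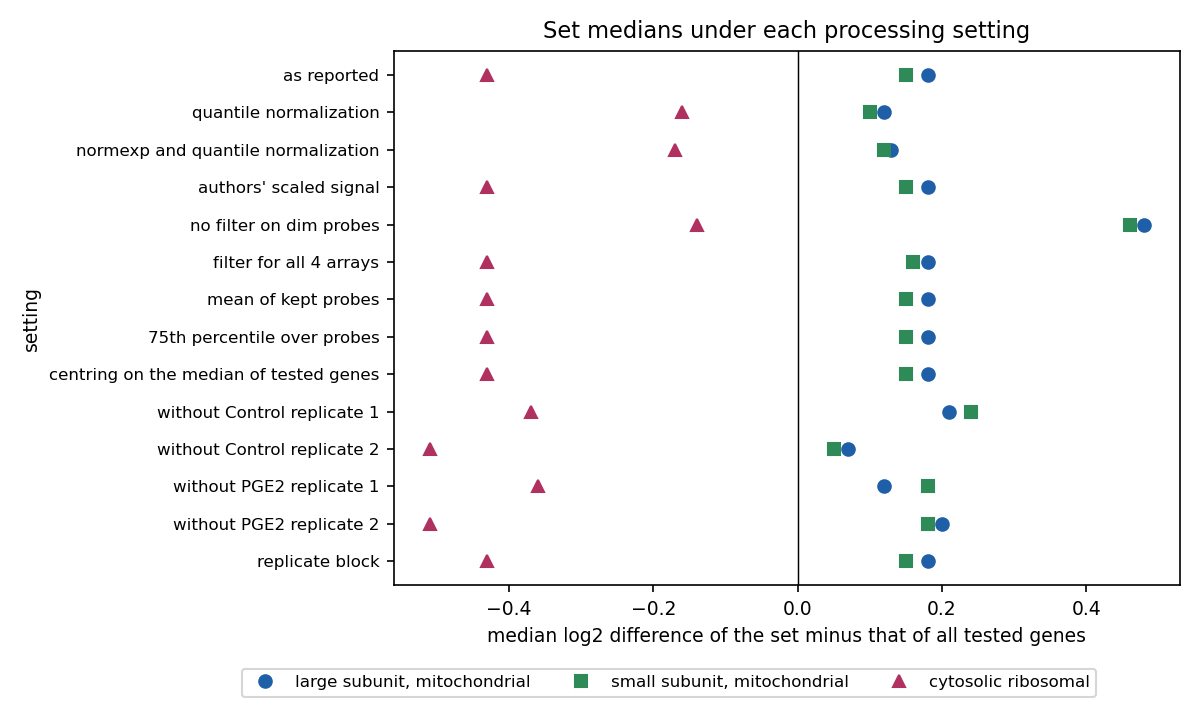
Median log2 difference of each gene set minus that of all tested genes (x axis) under each processing setting (y axis), for the large subunit, the small subunit and the cytosolic ribosomal protein genes. The mitochondrial sets stay above 0 and the cytosolic set below 0 in each setting, but the mitochondrial sets come down to 0.07 and 0.05 without Control 2, and rise to 0.48 and 0.46 without a filter, where the median of all genes is -0.33.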

How the data were processed

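RNA of 4 cultures, 2 control and 2 PGE2, grouped by their titles, was labelled with Cy3 and hybridised to 1 Agilent array each, per the labels' protocols. Each deposited scanner file lists spot intensities, made with Agilent Feature Extraction 11.5.1.1, protocol GE1_1105_Oct12, on array design 074809 (build mm9), per the file headers. Version 12.0.3.1 is the one in the submitters' processing notes. The authors' deposited table of the whole series gave the gene symbols and a scaled signal, which equals the scanner's processed value multiplied, on each array, by a single factor (0.964 on Control 1, 0.945 on Control 2, 1.07 on PGE2 1 and 0.990 on PGE2 2). The column medians are 32.7, 42.9, 39.9 and 40.5, the scale is linear, and neither centring nor a change of direction was found. Its 4 columns of detection calls were not used.

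From these, log2 values of the processed signal were computed and the 75th percentile over an array's non-control spots was subtracted. Spots of a probe were averaged, 158 probes with outlier flags were left out, and probes well above background on both arrays of 1 group were kept (26100 of 56447). Each gene was represented by its brightest kept probe, giving 17660 tested genes, 14310 of them with a symbol. Percentile scaling hides a change shared by most transcripts. PGE2 was compared with control by limma 3.58.1 in R 4.3.3 (tables read with data.table, version 1.17.8) with lmFit and eBayes, on 2 residual degrees of freedom and 2.15 prior ones, with no replicate block, Benjamini-Hochberg adjustment and a threshold of 0.05. The steps were tested on simulated data with planted changes larger than any member's difference, so that test does not cover differences as small as those of the members. With 2 arrays a group the number of arrays limits the precision.

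The members, the gene lists and the tests were chosen with earlier results of these data known. Named were the 8 members with the highest and the 8 with the lowest fitted difference, 14 members of known roles whatever their result, members whose probes differ in sign, and up to 4 genes with the smallest p of each further list. Alternatives were quantile normalization, normexp (offset 50) with quantile normalization, centring on the median, the authors' scaled signal, other filters and probe rules, an intensity trend, the replicate block, the subunit by place, and each array left out. The files hold no mean signal, so normexp used the median signal. Of 47700 spots with a symbol 44970 matched a RefSeq gene ID. Members were taken by the symbol in the file.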

Additional observations from a re-analysis of the deposited data

How the results depend on the processing

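No member was called in any setting, and all 77 were tested in each. Called genes over the array went from 118 to 54 with the filter for all 4 arrays, to 0 on the authors' scale (4203 at an unadjusted p under 0.05 in limma) and to 0 without a filter (2685), and ranged from 0 to 174 when an array was left out, with 0 without Control 1 (2710) and 0 without Control 2 (2963). The large subunit median was 0.41 and the small 0.38 on the authors' scale, which shifts all tested genes by 0.23, and with an array left out they ranged from 0.01 to 0.22 and from 0 to 0.25. The large minus small difference ranged from -0.06 to 0.02 with an array left out and was -0.01 by place. The cytosolic median was -0.16 after quantile normalization, -0.18 with normexp and -0.20 on the authors' scale, and the mitochondrial minus cytosolic gap 0.27 and 0.29 with the first pair. Members above both controls on both PGE2 arrays numbered 72 on the authors' scale, where 47.7% of all tested genes lay above. With an array left out such members numbered 30 to 65, beside 31.1% to 41.5% of all tested genes. Members below numbered 8, 6 and 1 with quantile normalization, normexp and the authors' scale, beside 26.4%, 26% and 14% of all tested genes. They numbered 1 with the percentile over probes (chosen after seeing the data), beside 26.1%. With an array left out they numbered 2 to 20, beside 37.8% to 45% of all tested genes. The highest of both, 20 and 45%, came without Control 2. The cause was not tested.

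Of 448 recomputed values of 32 named members, 416 kept their sign and 32, in 13 members, reversed, none of them a called gene. On the authors' scale these were Mrpl42 (0.03), Mrpl30 (0.11), Mrpl52 (0.13), Mrps16 (0.14), Mrps15 (0.15), Mrpl33 (0.17), Mrps9 (0.17), Mrpl48 (0.24) and Mrpl18 (0.25). Quantile normalization gave 0.04 for Mrpl33 and -0.02 for Mrpl3, normexp 0.03 and -0.03, the percentile over probes 0.02 for Mrpl18 and 0 for Mrpl48, and the mean of probes -0.01 for Mrpl9. With an array left out the ranges were -0.31 to 0 for Mrpl30, -0.27 to 0.02 for Mrpl52, -0.27 to 0.04 for Mrps16, -0.23 to 0.01 for Mrps15, -0.32 to 0.14 for Mrpl33, -0.22 to 0.05 for Mrps9, -0.11 to 0.22 for Mrpl12, -0.03 to 0.05 for Mrpl3, -0.20 to 0.19 for Mrpl18, -0.01 to 0.46 for Mrps12, -0.05 to 0.01 for Mrpl48 and -0.05 to 0.07 for Mrpl9.

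The labels do not say whether cultures with equal replicate numbers were handled together (deviations of equal numbers correlated at 0.424, 2 pairs). Between arrays of equal number the within-gene member median went from 0.12 to 0.18 (replicate 1) and from -0.12 to 0.08 (replicate 2). Whether equal numbers form pairs was not tested. With the replicate block 172 genes were called and the adjusted p of Mrps6 in limma was 0.0658.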
